A study of Mus musculus with 38 samples.

Results

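The nuclear genes of respiratory chain complexes III, IV and V were followed in left ventricles of C57BL6 wild-type mice with and without heart failure with preserved ejection fraction (HFpEF). Members were all genes whose symbol starts with Uqcr, Cox4 to Cox8 or Atp5 and that had at least 10 counts in at least 8 of 38 libraries. Of 46 symbols that match, 41 qualified among 29564 genes in the tables: 8 of complex III, 16 of complex IV and 17 of complex V. The other 5 were Cox7b2, Cox8c and the pseudogenes Atp5l-ps1, Atp5l-ps2 and Atp5l2-ps, none above 10 counts in any library. The rule used abundance and not group.

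The 4 groups were 8 control mice without heart failure (non_failing), 8 HFpEF mice given vehicle (HFpEF+Veh), 11 HFpEF mice dosed with TYA-018, which inhibits the deacetylase HDAC6 (HFpEF+TYA-018), and 11 given empagliflozin, an inhibitor of the renal glucose transporter SGLT2 (HFpEF+SGLT2i). HFpEF had been induced in the last 3 groups by high-fat diet with L-NAME (an inhibitor of nitric oxide synthases). The series title gives 3 months of treatment, where the methods describe a shorter one. The labels give no age or dose, and they call the mice female where the methods describe males.

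Complex III passes electrons from ubiquinol to cytochrome c, complex IV (cytochrome c oxidase) passes them on to oxygen, and both pump protons across the inner mitochondrial membrane. Complex V, the ATP synthase, lets the protons flow back and makes ATP. The catalytic cores of III and IV are partly encoded in mitochondrial DNA, and nuclear genes, most of them among those described here, supply other subunits. Heart and skeletal muscle use muscle isoforms of several complex IV subunits (Cox6a2, Cox7a1, Cox8b) in place of the isoforms found in most other tissues (Cox6a1, Cox7a2, Cox8a). The c-ring of the ATP synthase is built from a protein that 3 genes encode, Atp5g1, Atp5g2 and Atp5g3.

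Libraries held 21.5 to 59.3 M counts, with 28.5 to 39.5% of counts from mitochondrially encoded genes. Cardiomyocyte markers were abundant in every group (the 12 listed genes summed to between 19477 and 36619 TPM). The vehicle library V2523 stood apart by its liver transcripts: albumin (Alb) reached 493 TPM against at most 9.49 TPM in the other vehicle libraries. Hepatocyte markers were not confined to it: the 8 listed genes summed to 22.4 to 339 TPM in non_failing, 2.66 to 31.5 TPM in the other 7 vehicle libraries, 1.66 to 3.74 TPM in HFpEF+TYA-018 and 2.08 to 8.72 TPM in HFpEF+SGLT2i. Their part in the comparisons was not tested. Counts, complex values and isoform ratios against vehicle are given with and without V2523, and single genes where it changes a call. Nothing in the labels names a batch, and samples are single mice, so the p-values measure the spread between mice.

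Together the 41 genes made up 4.97% ± 0.43 (SD, n = 38) of the TPM listed for all genes, with 4.10% in the lowest library and 5.98% in the highest. Within complex III, mean TPM ran from 227 for Uqcrc2, a core protein, to 2316 for Uqcrq, a small supernumerary subunit. Within complex IV it ran from 2.92 for Cox6b2, a testis isoform, to 3047 for Cox6a2. Within complex V it ran from 3.57 for Atp5s to 3253 for Atp5b, the catalytic beta subunit. TPM corrects for length, so these levels can be set against each other.

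Atp5s and Atp5sl carry the prefix but are not subunits of the ATP synthase. Atp5s was also the least stable estimate: it had 0 counts in 4 libraries and 476 in the highest, and its SD within groups was 2.14 on the log2 CPM scale against a median of 0.20 over the 41 genes. In 26 members at least 1 library had a fractional count (by more than 0.001), which can arise where reads are divided between genes. GENCODE M21, an earlier release than the one the study's methods name, holds 2 genes named Atp5o, so its values may be uncertain.

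The summed level of each complex overlapped between all 4 groups. Complex III summed to 7827 ± 799 TPM (SD, n = 8) in non_failing hearts, 8231 ± 692 (n = 8) in HFpEF+Veh hearts, 8272 ± 790 (n = 11) in HFpEF+TYA-018 and 7708 ± 676 (n = 11) in HFpEF+SGLT2i. Complex IV summed to 20338 ± 2250, 19813 ± 1563, 20094 ± 1598 and 19048 ± 1700 TPM in the same order. Complex V summed to 19894 ± 1787, 19903 ± 1477, 20024 ± 1556 and 19351 ± 1647 TPM. Without V2523 the vehicle sums were 8201 ± 742, 19677 ± 1636 and 19790 ± 1558 TPM (n = 7). The group means therefore lay within the spread between mice for each complex.

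**Figure D1:**
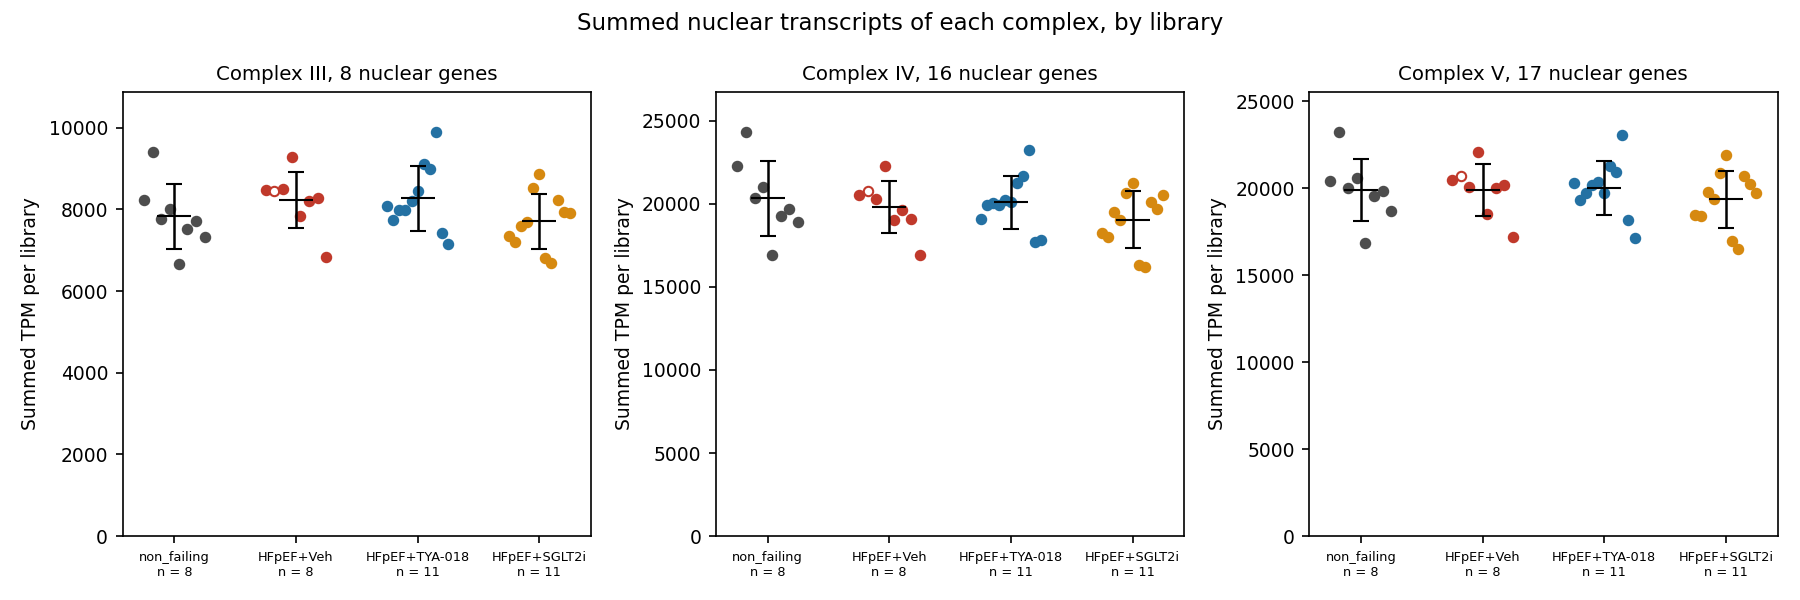
Summed TPM of the nuclear genes of complexes III, IV and V (y axis) in each library of the 4 groups (x axis); points are single mice, bars are the mean ± SD and the open symbol is V2523. All groups overlap in all panels, for example 16872 to 23205 TPM for complex V in non_failing and 17184 to 22102 TPM in HFpEF+Veh.

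The first comparison asked what HFpEF did to these genes without treatment. In HFpEF+Veh against non_failing, no member was called in either direction by edgeR's quasi-likelihood test. The background was 1.77% of all 13765 genes called higher and 1.38% called lower (without V2523, 2.04% and 2.46%). At an unadjusted p under 0.05 there were 11 of 41 members against 15.9% of all genes, and without V2523 there were 12 against 19%. DESeq2 called 2 members (Atp5g1 lower and Cox7a2l higher), where it called 2.32% of all genes higher and 2.03% lower. Without V2523 edgeR called 1 member, Atp5g1, lower.

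With TMM scaling 12 of 41 log2 fold changes were positive and 29 negative, whereas with library size alone, and with TPM, 23 were positive. By complex the positive counts were 3 of 8, 6 of 16 and 3 of 17, with and without V2523. The medians were -0.04 for III, -0.05 for IV and -0.07 for V, beside 0.01 for all genes (-0.07, -0.03 and -0.11 without V2523). Their sign depended on the scaling: over the other settings they reached 0.033, 0.019 and 0.00094. The vehicle library V2532 lay lowest of its group in each complex, with a median over members of -0.35, -0.41 and -0.32 relative to the gene means on the log2 CPM scale, and without it 19 members were positive and the median of complex IV was 0.016. Set against the median of all genes, 31 of 41 members lay below it both with TMM and with library size alone, and 26 of 40 with limma on log2(TPM + 1), where Atp5s was filtered out. In bulk tissue, fewer cells of a type and less RNA per cell cannot be told apart.

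The second comparison asked what TYA-018 did in HFpEF hearts. With edgeR only Atp5g1 was called (higher), where 0.835% of all genes were called higher and 1.1% lower (0.884% and 0.536% without V2523). Without V2523, 2 members were called higher, Atp5g1 and Cox8a. The log2 fold change was positive for all 41 members with TMM scaling and with DESeq2 (40 or 41 when a library was left out), for 34 of 41 with library size alone and for 30 of 40 on the TPM scale. Complex III had a median of 0.18, complex IV 0.18 and complex V 0.19, and the median of all genes was -0.01. Leaving out V2523 gave 0.18, 0.18 and 0.20.

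These small values depend on the scaling. Library size alone moved the median of all genes by -0.13 in this comparison, and the members' median with it, from 0.18 to 0.06. Relative to the median of all genes, the members' median was 0.19 with TMM, 0.19 with library size alone and 0.13 with limma on log2(TPM + 1), and all 41 members (40 of 40 with TPM) lay above it in each. Genes of a complex varied together between libraries, so counts of members in a direction, here and in other comparisons, are not independent results. The median over members, on the log2 CPM scale, had an SD within groups of 0.15, 0.15 and 0.14 for III, IV and V. For complex III it ran from -0.14 to 0.48 in HFpEF+TYA-018 and from -0.35 to 0.09 in HFpEF+Veh. With TMM, 48.2% of all genes had a positive value. An unadjusted p under 0.05 was reached by 2 members of complex III, 9 of IV and 8 of V, against 17.5% of all genes. Without V2523 these counts were 3, 8 and 7, against 19.6%. DESeq2 called 3 members higher (Atp5g1, Atp5d and Cox8a), where it called 1.58% of all genes higher and 1.34% lower.

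The third comparison asked the same of empagliflozin. No member was called in HFpEF+SGLT2i against HFpEF+Veh by edgeR or DESeq2, and none had an unadjusted p under 0.05 (0 of 41, against 10% of all genes). DESeq2 called 0.247% of all genes higher and 0.588% lower. With edgeR 0.131% were called higher and 0.719% lower, and without V2523 0.0145% and 0%. Positive values were found for 4 of 8, 8 of 16 and 12 of 17 members of III, IV and V with TMM, and for 3, 2 and 9 with library size alone. Of all genes, 51.6% had a positive value with TMM and 30.5% with library size alone, which moved their median by -0.08. The medians were 0.01, -0.00 and 0.09. Without V2523 the positive counts were 4, 9 and 12, the medians 0.02, 0.01 and 0.08, no member was called, and 3 (all of complex III) had an unadjusted p under 0.05, against 10.5% of all genes.

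The treated groups were also compared directly. In HFpEF+TYA-018 against HFpEF+SGLT2i, edgeR called 0 members and 0 of all genes (0% higher, 0% lower), although 19 members had an unadjusted p under 0.05, against 13.2% of all genes. DESeq2 called 1 member, Cox6a1, at a log2 fold change of 0.20 (adjusted p = 0.0481), where it called 0.792% of all genes higher and 0.552% lower. Values were positive for 36 of 41 members and for 48.4% of all genes. The positive members included all 16 of complex IV, and the 5 exceptions were 2 of complex III and 3 of complex V. Over the other settings 30 to 37 members were positive, and 35 to 39 when a library was left out.

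**Figure D2:**
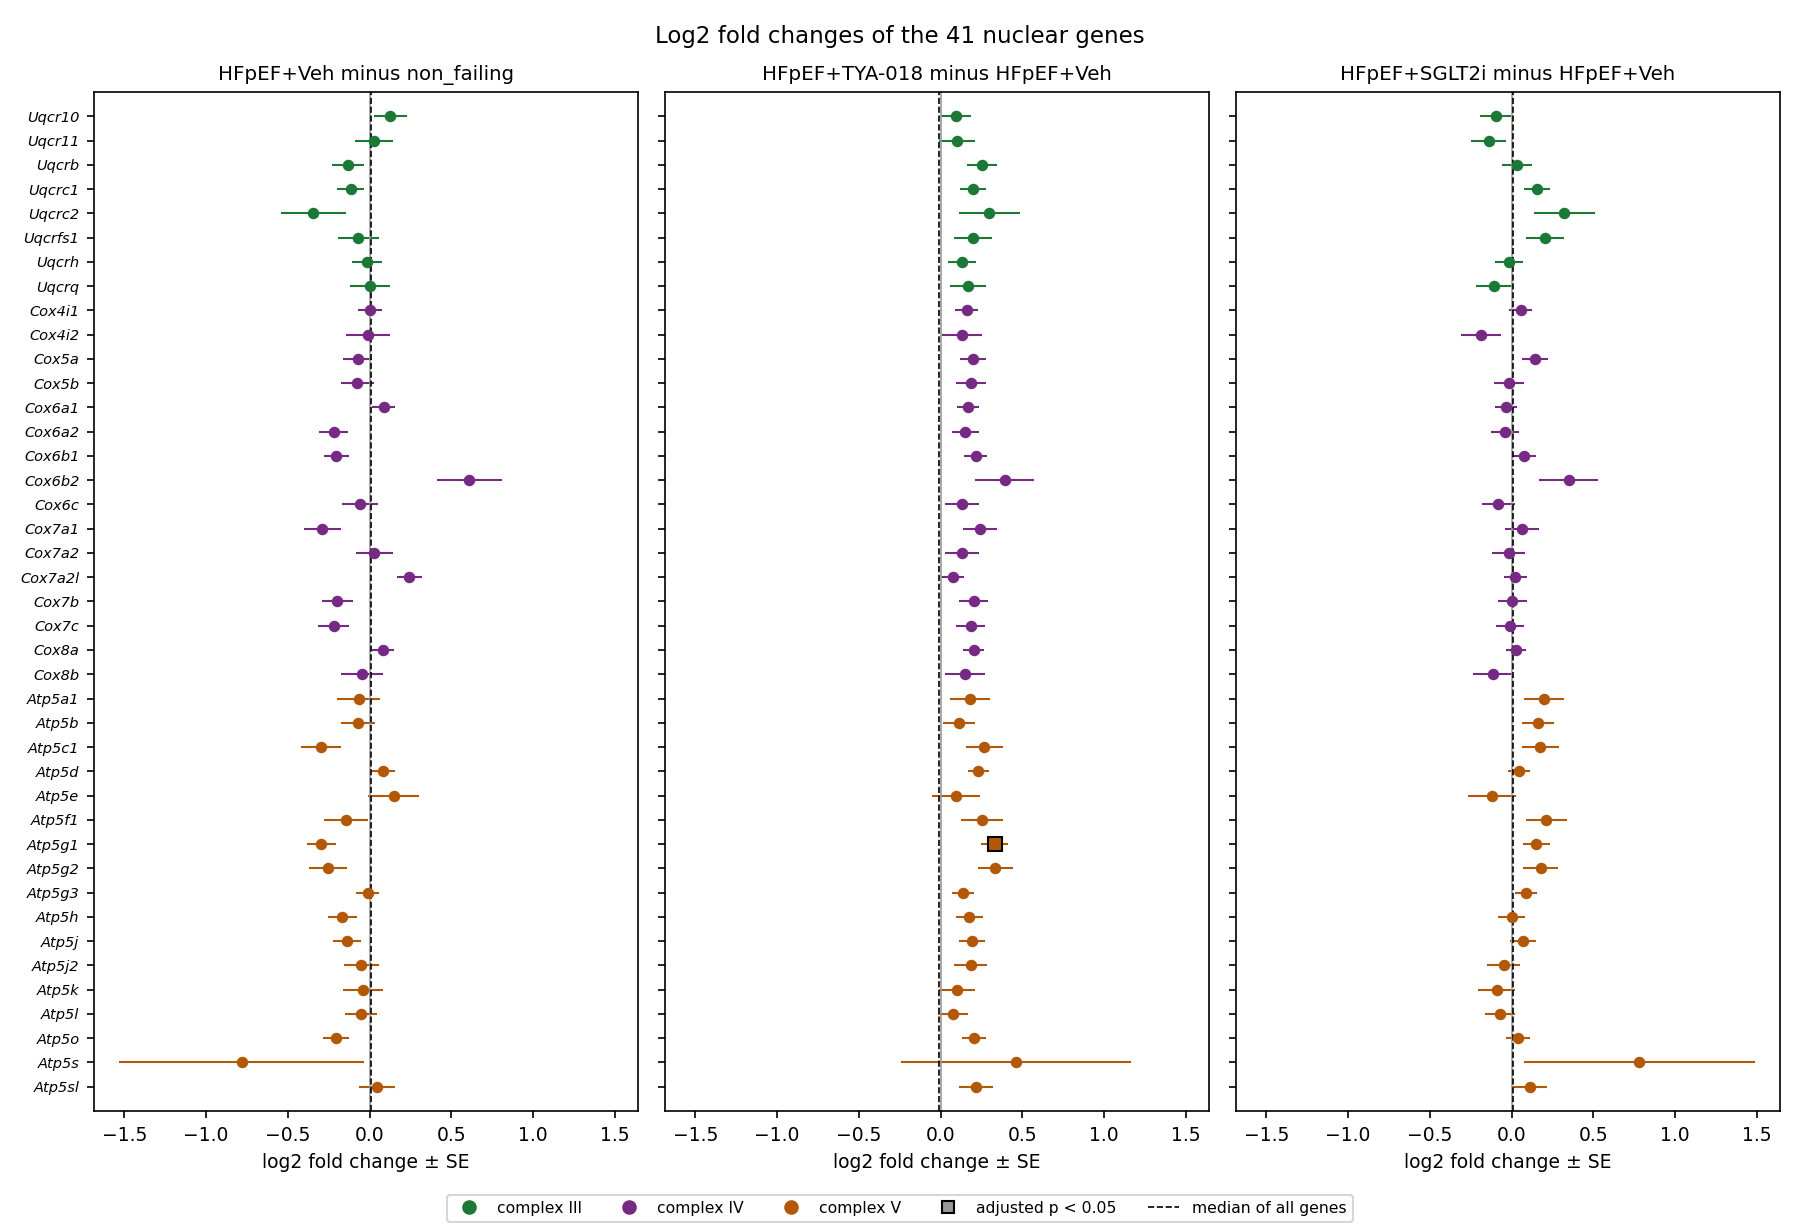
Log2 fold change ± SE (x axis) of the 41 genes (y axis, grouped by complex) in 3 comparisons, from edgeR with TMM scaling; squares mark an adjusted p under 0.05 and the dashed line is the median of all genes. In the middle panel all 41 values lie right of 0, a count that falls to 34 with library size alone, and only Atp5g1 is marked.

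Against non_failing hearts, HFpEF+TYA-018 had 5 members called higher and none lower, where 4% of all genes were called higher and 3.39% lower. HFpEF+SGLT2i had 2 called higher and 1 lower, where 3.46% and 2.99% of all genes were. Most of these calls lay in complex IV (Cox6b2, Cox7a2l, Cox8a, Cox6a1 and Cox6a2), and none lay in complex III. The 3 comparisons with non_failing share its 8 libraries.

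In complex III no member was called in any of the 6 comparisons. Uqcrq, the most abundant, had a median of 2182 TPM in non_failing (1961 to 2901), 2431 in HFpEF+Veh (1693 to 2895), 2227 in HFpEF+TYA-018 hearts (1992 to 3101) and 2109 in HFpEF+SGLT2i (1683 to 2616). These ranges overlap. Uqcrc2 had the widest spread of the complex, with an SD within groups of 0.42 on the log2 CPM scale.

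Uqcrc2 was singled out after its values were seen. Its median was 241 TPM in non_failing (168 to 301), 183 in HFpEF+Veh (139 to 294), 219 in HFpEF+TYA-018 hearts (133 to 313) and 226 in HFpEF+SGLT2i (116 to 351). The log2 fold change was -0.34 ± 0.20 (SE) in HFpEF+Veh against non_failing and 0.30 ± 0.19 with TYA-018 against vehicle. Both missed the threshold in edgeR (adjusted p = 0.412 and 0.418).

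In complex IV, 3 pairs of muscle and other isoforms were compared, beside Cox4i2 and Cox4i1. The promoters of the muscle isoform Cox7a1 and its widely expressed partner Cox7a2 are shown because their ratio separated HFpEF+Veh from non_failing without overlap. Those of Atp5g1 and Atp5g3 are shown because only the first was called after treatment. Each is a RefSeq window (GRCm38.p6) from 250 bases before to 50 after the start of the gene, on the gene's strand. Capitals mark matches on either strand to GCGCANGCG (the NRF1 motif), TNAAGGTCA (ERR), CCGGAAG (GABPA), CCAAT and CAGCTG (an E-box).
Cox7a1 (chr7:30183921-30184220, plus strand): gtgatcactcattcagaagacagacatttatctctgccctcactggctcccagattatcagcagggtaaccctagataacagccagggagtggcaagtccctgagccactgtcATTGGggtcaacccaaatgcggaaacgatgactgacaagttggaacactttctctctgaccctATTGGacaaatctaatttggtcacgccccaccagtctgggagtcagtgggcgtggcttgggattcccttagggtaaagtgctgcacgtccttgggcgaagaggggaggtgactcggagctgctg
Cox7a2 (chr9:79759804-79760103, minus strand): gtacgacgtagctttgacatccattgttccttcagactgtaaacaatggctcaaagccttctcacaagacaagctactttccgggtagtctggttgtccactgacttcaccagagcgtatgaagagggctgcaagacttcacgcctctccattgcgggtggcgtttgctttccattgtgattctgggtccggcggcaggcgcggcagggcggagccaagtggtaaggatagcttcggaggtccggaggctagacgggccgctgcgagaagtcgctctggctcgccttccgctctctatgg
Atp5g1 (chr11:96075582-96075881, minus strand): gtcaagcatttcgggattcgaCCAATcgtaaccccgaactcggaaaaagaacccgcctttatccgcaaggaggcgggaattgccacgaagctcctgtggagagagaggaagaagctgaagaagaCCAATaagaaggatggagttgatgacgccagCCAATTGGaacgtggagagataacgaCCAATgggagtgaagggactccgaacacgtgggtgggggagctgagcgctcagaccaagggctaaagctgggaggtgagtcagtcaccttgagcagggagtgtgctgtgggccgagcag
Atp5g3 (chr2:73911277-73911576, minus strand): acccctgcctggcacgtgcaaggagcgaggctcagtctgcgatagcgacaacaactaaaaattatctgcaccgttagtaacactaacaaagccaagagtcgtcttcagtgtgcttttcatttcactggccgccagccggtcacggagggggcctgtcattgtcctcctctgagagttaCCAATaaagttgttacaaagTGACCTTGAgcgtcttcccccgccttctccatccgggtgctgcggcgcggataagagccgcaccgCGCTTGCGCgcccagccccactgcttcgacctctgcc

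The Cox7a1 window holds 2 CCAAT boxes, the Cox7a2 window none of the 5 motifs, and the Atp5g1 window 5 CCAAT boxes, of which 2 overlap. The Atp5g3 window holds a match to the NRF1 and ERR motifs each and 1 CCAAT box. A window was found for 30 of the 41 members (33 windows). An NRF1 match lay in 10 of the 33 member windows against 6.25% of all 32851 windows, a GABPA match in 10 against 8.86%, and an ERR match in 1 against 1.28%. CCAAT was found in 17 of 33 against 37.4%, and CAGCTG in 2 of 33 against 16.3%. A match is a description of letters and not a bound site.

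Cox7a1 replaces Cox7a2 in the oxidase of striated muscle. Its level was 1676 TPM (median, 1419 to 2135) in non_failing and 1494 (1244 to 1740) in HFpEF+Veh. Cox7a2 had 607 TPM (566 to 774) and 672 (528 to 742). Taken singly the genes overlapped between the groups and neither was called, Cox7a1 at a log2 fold change of -0.29 ± 0.11 (edgeR adjusted p = 0.175; 0.0360 with the length offset, the lowest of its alternatives) and Cox7a2 at 0.03 ± 0.11 (0.924).

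Their ratio within a library does not depend on the scaling between libraries. The Cox7a1/Cox7a2 ratio was 2.79 (geometric mean) in non_failing, with 2.51 in the lowest library and 3.21 in the highest. In HFpEF+Veh it was 2.27, from 1.98 to 2.49, so that all 8 vehicle libraries lay below all 8 non_failing libraries. The difference was -0.30 ± 0.06 (SE) on the log2 scale (exact permutation test, two-sided, adjusted p = 0.00117), and -0.30 (0.00222) without V2523.

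In the treated groups the ratio lay between these levels. It was 2.47 in HFpEF+TYA-018 hearts (2.02 to 2.96) and 2.44 in HFpEF+SGLT2i (2.09 to 2.93). Against non_failing the differences were -0.18 ± 0.06 (exact permutation adjusted p = 0.0231; 0.0642 without non_failing V2501) and -0.19 ± 0.06 (0.0121). Against vehicle they were 0.12 ± 0.06 and 0.10 ± 0.06, which missed the threshold (exact permutation adjusted p = 0.140 and 0.164; 0.165 and 0.182 without V2523). Without the TYA-018 library V2543 the first of these was 0.15 (adjusted p = 0.0298).

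Cox6a2, the heart and muscle isoform of subunit VIa, was the most abundant gene of complex IV. Its median was 3284 TPM in non_failing (2484 to 3984), 3201 in HFpEF+Veh (2378 to 3435), 3164 in HFpEF+TYA-018 hearts (2489 to 3429) and 2791 in HFpEF+SGLT2i (2405 to 3215). It was called lower in HFpEF+SGLT2i against non_failing, at a log2 fold change of -0.26 ± 0.08 (edgeR adjusted p = 0.0482, lower than the non_failing mean of log2 CPM, the scale of all such counts for single genes, in 11 of 11 libraries). The call is marginal: it was lost in 17 of the 38 fits that left out a library, with an edgeR adjusted p of up to 0.110. It was also lost without a filter, with the 2 groups alone and with limma on TPM. The log2 fold change was -0.30 to -0.21 when a library was left out. It was -0.26 without a filter and with the 2 groups alone, and -0.22 with limma on log2(TPM + 1).

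Cox6a1, its counterpart in other tissues, had a median of 191 TPM in non_failing (165 to 245), 226 in HFpEF+Veh (173 to 247), 219 in HFpEF+TYA-018 hearts (203 to 255) and 205 in HFpEF+SGLT2i (185 to 231). It rose in HFpEF+TYA-018 against non_failing by 0.25 ± 0.07 (edgeR adjusted p = 0.0154, 11 of 11 libraries). The call was lost with library size alone (log2 fold change 0.20, edgeR adjusted p = 0.0953) and with limma on log2(TPM + 1) (0.21, adjusted p = 0.0543).

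The Cox6a2/Cox6a1 ratio fell from 17.0 in non_failing (15.0 to 19.5) to 14.0 in HFpEF+Veh (11.5 to 16.4), a log2 difference of -0.28 ± 0.07 (exact permutation adjusted p = 0.00932; -0.24 and 0.0134 without V2523). It was 13.5 in both treated groups (9.76 to 15.0 and 11.1 to 15.5). The differences from non_failing were -0.33 ± 0.07 with TYA-018, where no library overlapped (adjusted p = 0.000397 by the exact permutation test), and -0.33 ± 0.06 with empagliflozin (0.000794). From vehicle they differed by -0.05 ± 0.08 and -0.05 ± 0.07, neither past the threshold (0.683 and 0.656). Without V2523 both were -0.09 (exact permutation adjusted p = 0.337 and 0.257).

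Cox8b is the muscle isoform of subunit VIII and Cox8a its partner. Cox8a had a median of 292 TPM in non_failing (247 to 345), 319 in HFpEF+Veh (293 to 399), 334 in HFpEF+TYA-018 hearts (305 to 383) and 328 in HFpEF+SGLT2i (267 to 355). Its top value in the vehicle group came from V2523. It rose in HFpEF+TYA-018 against non_failing by 0.28 ± 0.06 (edgeR adjusted p = 0.00365, 11 of 11 libraries). Against vehicle the value was 0.20 ± 0.06 (adjusted p = 0.0819; 0.0487 without V2523 and 0.0409 with DESeq2).

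The Cox8b/Cox8a ratio was 6.41 in non_failing (5.91 to 6.82), 5.85 in HFpEF+Veh (4.59 to 6.87), 5.57 in HFpEF+TYA-018 hearts (3.84 to 6.92) and 5.36 in HFpEF+SGLT2i (4.16 to 6.13). It fell in HFpEF+SGLT2i against non_failing by 0.26 ± 0.06 on the log2 scale (exact permutation adjusted p = 0.00222, 11 of 11 libraries). In HFpEF+Veh the difference of -0.13 ± 0.08 missed the threshold (0.207; -0.08 and 0.337 without V2523), as did -0.20 ± 0.09 in HFpEF+TYA-018 (0.0561). Against vehicle the differences were -0.07 ± 0.11 with TYA-018 and -0.13 ± 0.09 with empagliflozin (exact permutation adjusted p = 0.672 and 0.264), and -0.12 and -0.18 without V2523 (0.337 and 0.0993).

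V2523 held the lowest Cox6a2/Cox6a1 and Cox8b/Cox8a ratios of the vehicle group, at 11.5 and 4.59. The TYA-018 library V2543 held the lowest of its group in all 3 muscle pairs, at 9.76, 2.02 and 3.84. Markers of other cell types differed between the groups too. In HFpEF+Veh against non_failing, 4 of 12 cardiomyocyte markers were called lower (Myl2, Myl3, Tnni3 and Tnnt2) and 3 of 8 fibroblast markers higher (Lum, Pdgfra and Postn), where 1.38% of all genes were called lower and 1.77% higher. The cardiomyocyte list summed to 25745 to 36619 TPM in non_failing and 24964 to 29984 in HFpEF+Veh, the fibroblast list to 191 to 303 and 271 to 653, with no marker of either list at 0. The cardiomyocyte list averaged 32755 TPM in non_failing, 27881 in HFpEF+Veh, 28452 in HFpEF+TYA-018 and 27080 in HFpEF+SGLT2i, with 1 marker called lower in HFpEF+TYA-018 and 4 in HFpEF+SGLT2i against non_failing (3.39% and 2.99% of all genes). The fibroblast list averaged 265 TPM, 376, 283 and 284 in the same order, with no marker called between either treated group and vehicle. Endothelial markers averaged 1986, 2691, 2621 and 2679 TPM, with none of 8 called in HFpEF+Veh, and erythrocyte markers 3209, 8072, 6821 and 4123 TPM, with none of 4 called there. Brown adipocyte markers averaged 23.1, 33.6, 35.7 and 36.5 TPM, and 2 of the 3 tested (Cidea and Dio2) were called higher in HFpEF+Veh (1.77% of all genes). The other listed genes (Ucp1, Elovl3 and Ppargc1a) had no call there, and 1 marker of the list was at 0 in every HFpEF+TYA-018 library. The part of all these cell types in the isoform ratios was not tested.

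**Figure D3:**
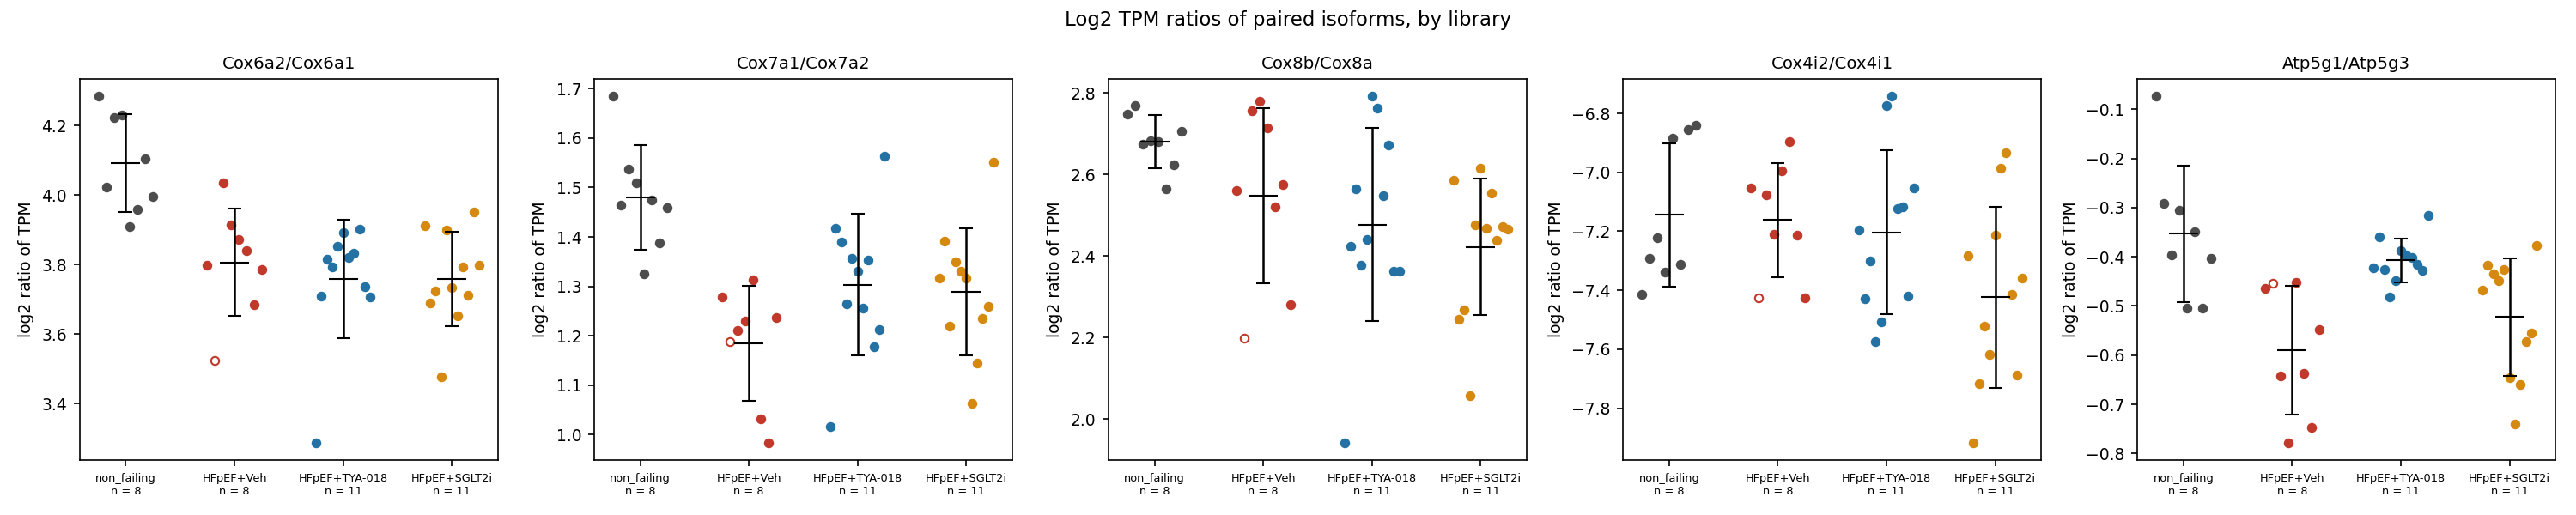
Log2 ratio of TPM (y axis) for 5 isoform pairs in each library of the 4 groups (x axis); points are single mice, bars are the mean ± SD and the open symbol is V2523. For Cox7a1/Cox7a2 all vehicle points (0.98 to 1.31) lie below all non_failing points (1.33 to 1.68), and for Atp5g1/Atp5g3 the TYA-018 points span only -0.48 to -0.32.

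Cox4i2, an isoform linked to low oxygen and vascular cells, was rare beside Cox4i1. It had a median of 14.4 TPM in non_failing (12.9 to 18.0), 16.4 in HFpEF+Veh (11.9 to 18.3), 15.6 in HFpEF+TYA-018 hearts (12.4 to 20.0) and 13.7 in HFpEF+SGLT2i (9.45 to 17.4), and Cox4i1 averaged 2246 TPM. The log2 ratio was -7.14 ± 0.24 (SD), -7.16 ± 0.19, -7.20 ± 0.28 and -7.42 ± 0.31 in these groups. HFpEF+Veh differed from non_failing by -0.02 (exact permutation adjusted p = 0.904), and by 0.02 (0.880) without V2523. HFpEF+TYA-018 differed from HFpEF+Veh by -0.04 (exact permutation adjusted p = 0.801), and by -0.08 (0.610) without V2523. The lower level with empagliflozin missed the threshold against vehicle and against non_failing (exact permutation adjusted p = 0.109 for both; 0.0798 and 0.0993 without V2523, and 0.0436 and 0.0440 without the SGLT2i library V2572).

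Cox6b2, known as the testis isoform of subunit VIb, was near the limit of detection, with 14 to 79 counts a library. It had a median of 1.58 TPM in non_failing (1.08 to 2.65), 2.85 in HFpEF+Veh (1.93 to 3.60), 3.22 in HFpEF+TYA-018 hearts (1.99 to 5.33) and 3.51 in HFpEF+SGLT2i (2.20 to 4.76). The ranges overlapped, and 8 of 8 vehicle libraries lay above the non_failing mean. It rose in both treated groups against non_failing, 2.00-fold with TYA-018 (log2 1.00 ± 0.19, edgeR adjusted p = 0.000525) and 1.94-fold with empagliflozin (0.96 ± 0.19, adjusted p = 0.000902). In HFpEF+Veh the value of 0.61 ± 0.20 missed the threshold (adjusted p = 0.0851; 0.0469 with library size alone and 0.0232 with limma on log2(TPM + 1)).

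Cox6b1, the isoform of most tissues, was abundant, with a median of 909 TPM in non_failing (745 to 1060), 827 in HFpEF+Veh (768 to 962), 891 in HFpEF+TYA-018 hearts (765 to 958) and 883 in HFpEF+SGLT2i (664 to 960). It was not called. Its log2 fold change was -0.20 ± 0.08 in HFpEF+Veh against non_failing and 0.21 ± 0.07 with TYA-018 against vehicle (edgeR adjusted p = 0.153 and 0.0991).

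Cox7a2l has been linked to the joining of complexes III and IV into supercomplexes. Whether its product does so in these C57BL6 mice was not tested. It had a median of 189 TPM in non_failing (156 to 195), 237 in HFpEF+Veh (197 to 254), 216 in HFpEF+TYA-018 hearts (182 to 261) and 223 in HFpEF+SGLT2i (187 to 263). On the TPM scale all 8 vehicle libraries lay above all 8 non_failing libraries. In edgeR it rose in HFpEF+TYA-018 against non_failing by 0.32 ± 0.07 (adjusted p = 0.00398) and in HFpEF+SGLT2i by 0.27 ± 0.07 (0.0176). In HFpEF+Veh the edgeR value was 0.24 ± 0.08 (adjusted p = 0.0735), past the threshold with DESeq2 (0.0329), with library size alone (0.0141) and with limma on log2(TPM + 1) (0.00411).

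**Figure D4:**
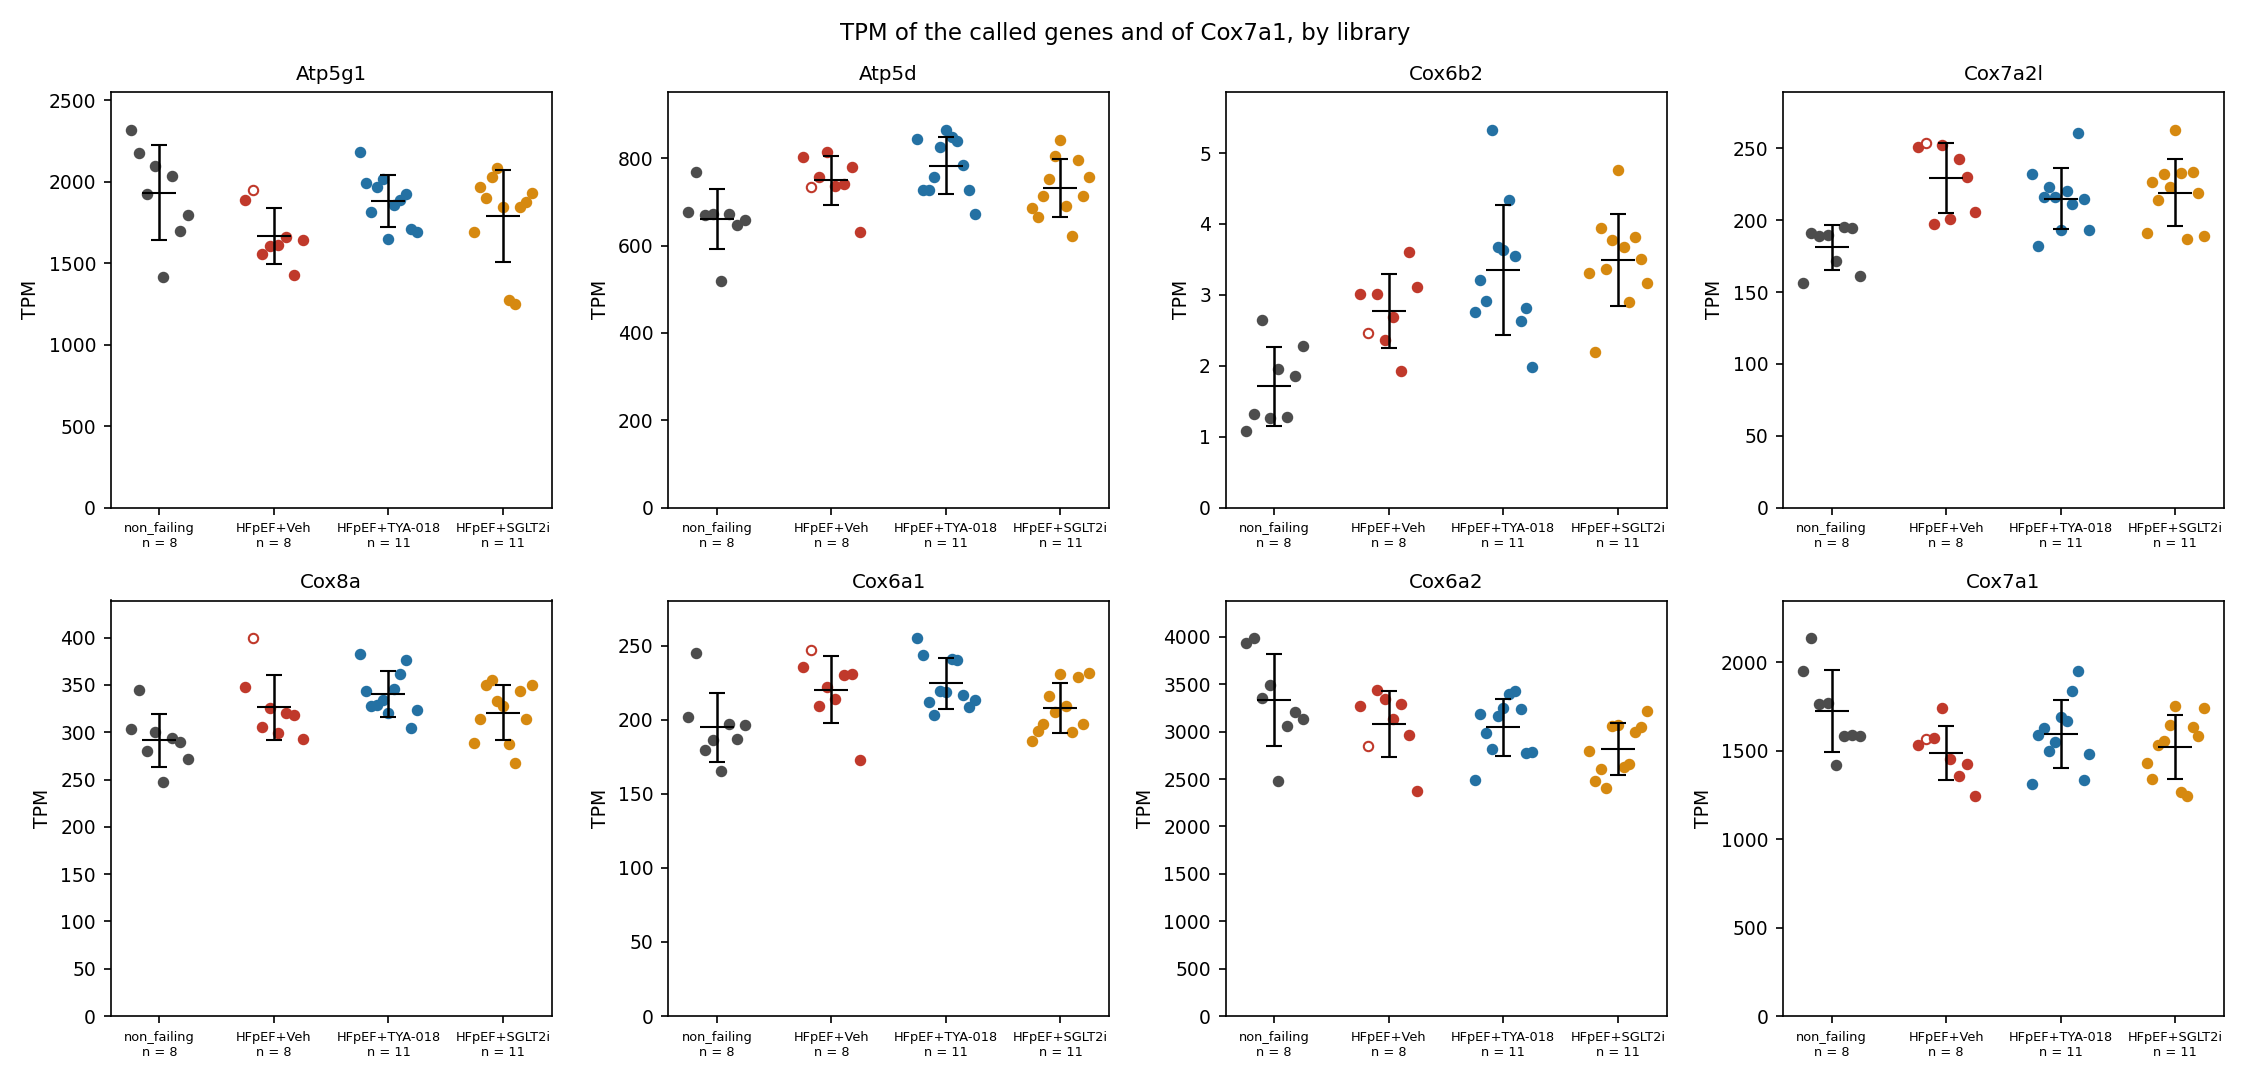
TPM (y axis, from 0) of the 7 genes called in any comparison and of Cox7a1 in each library of the 4 groups (x axis); points are single mice, bars are the mean ± SD and the open symbol is V2523. Cox7a2l runs from 156 to 195 TPM in non_failing and from 197 to 254 in HFpEF+Veh, while Cox6b2 reaches at most 5.33 TPM in any library.

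In complex V, Atp5g1 was the only member that edgeR called between treated and vehicle HFpEF hearts. It had a median of 1981 TPM in non_failing (1417 to 2319), 1629 in HFpEF+Veh (1426 to 1950), 1887 in HFpEF+TYA-018 hearts (1648 to 2181) and 1874 in HFpEF+SGLT2i (1249 to 2084). It rose 1.26-fold with TYA-018 against vehicle (log2 0.33 ± 0.08, edgeR adjusted p = 0.0277, above the vehicle mean of log2 CPM in 11 of 11 libraries; 0.35 and 0.0358 without V2523).

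The Atp5g1 call was lost under other scalings and without single mice. Its log2 fold change was 0.31 with the length offset, 0.20 with library size alone and 0.19 with limma, and 0.31 without V2527, V2530 or V2532. The adjusted p was 0.00793 with DESeq2, 0.0592 with the length offset, 0.118 with library size alone and 0.157 with limma on log2(TPM + 1), and 0.0513 to 0.0656 without vehicle library V2527, V2530 or V2532. In HFpEF+Veh against non_failing the gene had a value of -0.29 ± 0.09 (edgeR adjusted p = 0.0599; -0.31 and 0.0464 without V2523). With empagliflozin against vehicle it was 0.15 ± 0.08 (adjusted p = 0.555).

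Atp5g3, which encodes the same mature c-subunit, had a median of 2489 TPM in non_failing (2009 to 2665), 2505 in HFpEF+Veh (2205 to 2756), 2492 in HFpEF+TYA-018 hearts (2108 to 2923) and 2631 in HFpEF+SGLT2i (1974 to 2892). Atp5g2 was rare, with a median of 23.8 TPM in non_failing (12.6 to 28.5), 21.1 in HFpEF+Veh (16.1 to 23.8), 22.4 in HFpEF+TYA-018 hearts (16.2 to 29.0) and 20.7 in HFpEF+SGLT2i (15.1 to 27.3). Neither was called in any comparison.

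The Atp5g1/Atp5g3 ratio is free of the scaling between libraries. It was 0.783 in non_failing (0.705 to 0.950), 0.664 in HFpEF+Veh (0.583 to 0.731), 0.754 in HFpEF+TYA-018 hearts (0.716 to 0.804) and 0.696 in HFpEF+SGLT2i (0.599 to 0.770). It was lower in HFpEF+Veh than in non_failing by a log2 difference of -0.24 ± 0.07 (exact permutation adjusted p = 0.0107; -0.26 and 0.0101 without V2523). It was higher with TYA-018 than with vehicle by 0.18 ± 0.04 (adjusted p = 0.00117 by the exact permutation test; 0.20 and 0.00126 without V2523), in 11 of 11 libraries relative to the vehicle mean.

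With TYA-018 the ratio did not pass the threshold against non_failing (-0.05 ± 0.04, exact permutation adjusted p = 0.363). With empagliflozin it stayed below non_failing (-0.17 ± 0.06, 0.0245; 0.0710 without non_failing V2501 and 0.0503 without V2502), and against vehicle the difference was 0.07 ± 0.06 (0.363; 0.09 and 0.247 without V2523). TYA-018 and empagliflozin differed by 0.11 ± 0.04 (permutation test with 100000 resamples, adjusted p = 0.0198). This call held when any library of these treated groups was left out. Leaving out a non_failing or vehicle library could change only the adjustment, since those libraries do not enter the test.

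Atp5d, the delta subunit of the central stalk, rose in HFpEF+TYA-018 against non_failing by 0.31 ± 0.07 (edgeR adjusted p = 0.00216). Its median was 671 TPM in non_failing (519 to 769), 749 in HFpEF+Veh (632 to 814), 783 in HFpEF+TYA-018 hearts (671 to 865) and 713 in HFpEF+SGLT2i (622 to 842). Against vehicle the value was 0.23 ± 0.07 (adjusted p = 0.0578; 0.0222 with DESeq2).

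Atp5h, Atp5o and Atp5j encode parts of the peripheral stalk, which holds the catalytic head still. The study named these genes on the same libraries, so they are no independent evidence of a direction. Atp5h had a median of 1511 TPM in non_failing (1270 to 1781), 1433 in HFpEF+Veh (1284 to 1526), 1470 in HFpEF+TYA-018 hearts (1288 to 1546) and 1394 in HFpEF+SGLT2i (1190 to 1558). The group ranges of this gene overlapped throughout.

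The log2 fold changes in HFpEF+Veh against non_failing were -0.17 ± 0.09 for Atp5h, -0.20 ± 0.08 for Atp5o and -0.14 ± 0.08 for Atp5j (edgeR adjusted p = 0.355, 0.159 and 0.440). With TYA-018 against vehicle they were 0.18 ± 0.08, 0.21 ± 0.07 and 0.19 ± 0.08 (adjusted p = 0.252, 0.119 and 0.195). With empagliflozin against vehicle they were -0.00 ± 0.08, 0.04 ± 0.07 and 0.07 ± 0.08 (edgeR adjusted p = 0.997, 0.901 and 0.813). The signs of Atp5o and Atp5j turned with library size alone, which moved the median of all genes by -0.08 in this comparison. None of the 3 was called.

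Atp5b, the most abundant gene of complex V, had a median of 3062 TPM in non_failing (2793 to 3912), 3441 in HFpEF+Veh (2345 to 4025), 3209 in HFpEF+TYA-018 hearts (2729 to 4000) and 3226 in HFpEF+SGLT2i (2292 to 4030). It was not called. Atp5c1, the gamma subunit of the rotor and singled out after its values were seen, had a log2 fold change of -0.30 ± 0.12 in HFpEF+Veh against non_failing and 0.27 ± 0.11 with TYA-018 against vehicle (edgeR adjusted p = 0.202 and 0.206).

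Other genes of the pathway were also tested with edgeR. The symbol rule leaves out nuclear genes such as Cyc1 of complex III, so the complex sums and counts above lack them. Those listed for complex III averaged 290 TPM in non_failing, 290 in HFpEF+Veh, 299 in HFpEF+TYA-018 and 320 in HFpEF+SGLT2i. Those listed for complex IV averaged 343, 256, 324 and 296 TPM, with single libraries from 19.9 to 579 TPM. The 6 mitochondrially encoded subunits of III, IV and V (mt-Cytb, mt-Co1, mt-Co2, mt-Co3, mt-Atp6 and mt-Atp8) had no call in any comparison, and their median log2 fold change was -0.00 in HFpEF+Veh against non_failing and 0.19 with TYA-018 against vehicle. Of 23 complex IV assembly factors tested, Cox20 was called lower in HFpEF+Veh and HFpEF+SGLT2i against non_failing, Coa3 higher in HFpEF+TYA-018 against non_failing, and Cmc2 higher with TYA-018 against vehicle. Each is 1 gene of 23, where 1.38% and 2.99% of all genes were called lower and 4% and 0.835% higher in these comparisons in turn. Of 6 complex III assembly factors, Lyrm7 was called higher with TYA-018 against vehicle. Among 4 assembly factors and inhibitors of complex V, Atpif1 was called lower in HFpEF+SGLT2i against non_failing. With library size alone the calls of Coa3 and Lyrm7, and that of Cox20 in HFpEF+Veh, were lost.

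Cytochrome c (Cycs), which carries electrons from complex III to IV and was singled out after its values were seen, rose with TYA-018 against vehicle by 0.37 ± 0.09 (edgeR adjusted p = 0.0149; 0.0332 without V2523) and against non_failing by 0.27 ± 0.09 (0.0472). Complex I gives the nearest comparison: 34 of 35 of its tested genes had a positive log2 fold change with TYA-018 against vehicle (TMM), 3 were called higher (1 without V2523), where 0.835% of all genes were called higher, and the median was 0.19. With library size alone 27 were positive, none of the 35 was called, and the median was 0.07. In HFpEF+Veh against non_failing 29 of 35 were negative, 1 was called lower, where 1.38% of all genes were, and the median was -0.09. With library size alone 20 were negative and the median was -0.02, and 52.3% of all genes were positive with TMM and 67.3% with library size alone. Complex II had medians of -0.17 and 0.20 over 4 genes in these comparisons, with no call. Of 8 regulators of these genes, among them Ppargc1a and Nrf1, none was called in either comparison.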

How the data were processed

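RNA from the left ventricle of 38 mice was measured by polyA-selected RNA-seq, 1 library per mouse. Per the labels, Salmon 1.6.0 made the values; the mouse reference and annotation are those of the study's methods, while the labels name a human build. The authors deposited 1 table each of estimated counts, TPM (length-corrected abundance, summing to 950659 to 965392 per library over the listed genes) and effective length (in bases, unit given as other), all with gene symbols in rows. No column was left unmapped.

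Estimated counts were rounded and tested with edgeR 4.0.16 (quasi-likelihood test, TMM scaling, filterByExpr, all 4 groups in a single model, R 4.3.3). Benjamini-Hochberg adjustment ran over all 13765 genes that passed the filter, and a gene was called below an adjusted p of 0.05. The 41 members all passed. The log2 TPM ratios of paired isoforms were compared with two-sided permutation tests, exact where a group held fewer than 10 mice and otherwise with 100000 resamples, adjusted over 30 tests. Mouse numbers are not shared between groups, so no pairing was possible. The lowest chi-square per degree of freedom between 2 libraries of a group was 16.6 over 166 pairs, so none was a repeat of another. On simulated data for HFpEF+Veh against non_failing, edgeR recovered 7 of 74 genes changed 1.25-fold, 33 of 62 changed 1.5-fold and 49 of 63 changed 2.0-fold, and 7 of its calls (7.29%) were of unchanged genes.

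Genes were named by rule: every member called in any comparison, the isoform pairs with Cox6b1, Cox6b2 and Atp5g2, the genes Atp5h, Atp5o and Atp5j that the study named on these libraries, and the most and least abundant member of each complex. Uqcrc2 and Atp5c1 changes and the library notes were chosen after their values were seen. The members, lists and motifs were chosen with earlier results of these data known. Alternatives were library-size scaling, DESeq2 1.42.0, 2 other filters, a length offset, limma 3.58.1 on log2(TPM + 1) and log2(TPM + 0.1), the 2 groups alone, and leaving out each library.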

Additional observations from a re-analysis of the deposited data

Results flagged for a closer look

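Among 98 series of 8 values (the 41 genes, the 3 complex sums and the 5 isoform ratios in both groups of 8 mice), 14 held a sample whose gap to its nearest neighbour was too large a part of the range by Dixon's limit. Chance gives about 1 in 20 for independent series, but these series share the same mice. All 14 came from V2502, V2507 or V2532, and none of the 14 came from V2523. Groups of 11 were not tested.

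The non_failing library V2502 passed the limit as the highest of its group in 8 genes. It had 1859 TPM of Atp5e, 1236 of Atp5j2, 245 of Cox6a1, 3319 of Cox6c, 774 of Cox7a2, 1896 of Uqcr11, 1515 of Uqcrh and 2901 of Uqcrq. The non_failing library V2507 passed it as the lowest in 3 genes, with 2009 TPM of Atp5g3, 15.3 of Atp5sl and 446 of Uqcrc1. The vehicle library V2532 passed it as the lowest in 3 genes, with 2345 TPM of Atp5b (3266 to 4025 in the others), 632 of Atp5d and 742 of Atp5j2.

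The log2 Atp5g1/Atp5g3 ratio differed between the treated groups by 0.11 (permutation test, adjusted p = 0.0198), higher with TYA-018.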

How the results depend on the processing

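No paired analysis was possible because the mouse numbers are not shared between groups. Members called in HFpEF+Veh against non_failing numbered 0, but 2 with library size alone, DESeq2 and limma at either pseudocount, 1 with the length offset and 0 to 1 when a library was left out. Of all genes in this comparison, 379 were called higher and 98 lower with library size alone, and 319 and 280 with DESeq2. The length offset gave 226 and 211, limma on log2(TPM + 1) 318 and 132, and limma on log2(TPM + 0.1) 327 and 125. With TYA-018 against vehicle the count of 1 became 3 with DESeq2, 0 with library size alone, the length offset and limma on TPM, and 0 to 3 when a library was left out. Over all genes the calls higher and lower were 217 and 185 with DESeq2, 25 and 1071 with library size alone, 68 and 124 with the length offset, and 3 and 39 with limma on log2(TPM + 1). With TYA-018 against SGLT2i it was 1 with DESeq2, and for SGLT2i against non_failing 2 to 3 when a library was left out. Positive members in HFpEF+Veh against non_failing numbered 23 with library size alone and limma, and 8 to 19 when a library was left out (19 without V2532). For SGLT2i against vehicle there were 14 with library size alone, where 30.5% of all genes were positive.

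Signs turned for Atp5j (-0.0096, library size alone) and Atp5o (-0.042 with library size alone, -0.031 with limma) with SGLT2i against vehicle, and for Cox6a2 with TYA-018 against vehicle (-0.0025, limma). Library size alone moved the median of all genes by -0.08 with SGLT2i against vehicle. Leaving out a library gave log2 differences from -0.028 to 0.047 for Cox6a2/Cox6a1 and -0.011 to 0.043 for Cox7a1/Cox7a2 between TYA-018 and SGLT2i, and -0.056 to 0.026 for Cox4i2/Cox4i1 in HFpEF+Veh against non_failing. Calls changed within 0.091 to 0.15 (Cox7a1/Cox7a2, TYA-018 against vehicle), -0.20 to -0.15 (the same, TYA-018 against non_failing), -0.24 to -0.15 (Cox8b/Cox8a, TYA-018 against non_failing), -0.31 to -0.21 and -0.33 to -0.23 (Cox4i2/Cox4i1, SGLT2i against vehicle and non_failing) and -0.19 to -0.13 (Atp5g1/Atp5g3, SGLT2i against non_failing). The cause was not tested. Counts divided by length could not change the 30 ratio tests, because TPM is itself made from counts and length, so their unchanged calls are no check. Cox6b2, at 14 to 79 counts a library, had the lowest depth of the genes named in a call.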
